A study of Mus musculus with 8 samples.

Results

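The voltage-gated sodium and calcium channels, the HCN pacemaker channels and the intracellular calcium release channels set how a neuron fires and how calcium enters its cytoplasm. The set described here holds 34 genes of these families, given by name, and the rule used no measured value. The arrays named 21368 genes in all. Of the 34 genes, 33 had a probe that could be named, and 31 cleared the background limit on 4 or more of the 8 arrays and were tested among 16618 genes. Hippocampal RNA of 8 mice was measured on 1-colour Agilent microarrays, with 1 array per mouse. All mice were nontransgenic females from litters of the APPswe695/PSEN1dE9 line on a C57BL/6J background, so no animal carried the transgene. The Control group held 4 untreated mice aged 19 weeks. The Hydroxyurea group held 4 mice given 45 mg/kg/day of hydroxyurea, an inhibitor of ribonucleotide reductase, in the drinking water for 10 weeks from an age of 9 to 14 weeks. Hydroxyurea 1 and 2 were 24 weeks old at the end and Hydroxyurea 3 and 4 were 19 weeks old. Since every treated mouse was treated for 10 weeks, its age at the end and the time its treatment began cannot be told apart. No untreated mouse was 24 weeks old, so treatment and age are partly confounded, and the main treatment comparison did not adjust for age. The labels number the mice but do not say which shared a cage. The p-values measure only the spread between these 8 animals and their arrays, which cannot be told apart with 1 array per mouse.

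Sodium channel alpha subunits form the pore that carries the rising phase of the action potential, and beta subunits adjust its gating and placement in the membrane. Calcium channels are built around an alpha1 pore with alpha2delta and beta subunits as helpers, and their calcium triggers transmitter release, dendritic spikes and signals to the nucleus. HCN channels open on hyperpolarization and steady the resting potential, while ryanodine and IP3 receptors release calcium from the endoplasmic reticulum.

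Values are log2 signal intensities minus the 75th percentile of the array, so 0 marks the 75th percentile spot of that array. They compare mice for 1 probe and do not rank genes against each other, because probes differ in brightness. In whole hippocampus, fewer cells of a type and less RNA per cell cannot be told apart. The 75th percentile was 1052 on Hydroxyurea 2, the dimmest array, and between 1677 and 2417 on the other 7. Replicate spots of a probe had a median CV of 12.9% on Control 1 and of 3.72% to 4.44% on the rest. Control 1 also stood apart among bright genes, of which 116 of 8668 lay at least 2-fold below the median of the other Control mice, against 1 to 4 genes for each of those mice. The Control arrays lay in row 1 and the Hydroxyurea arrays in row 2 of 1 slide, so row and group cannot be told apart. Of the hippocampal markers listed, 8 of 8 dentate gyrus, 6 of 6 CA1 and 6 of 7 CA3 and CA2 genes were detected well enough to be tested. So were 10 of 10 thalamic and habenular and 8 of 8 choroid plexus markers.

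Hydroxyurea treatment came with no channel gene past the threshold. Of 31 genes tested, 0 had a limma adjusted p under 0.05, as had 0% of all genes, and the smallest adjusted p of a channel gene was 0.452. The values of 14 genes were higher and those of 17 lower in the Hydroxyurea group, against 48.7% of all genes higher and 51.3% lower. The median log2 difference was -0.02 for the channel genes and -0.0038 for all genes, and the median size of the difference was 0.11 and 0.10. Without adjustment, 2 genes were higher at p under 0.05 (Hcn2 and Itpr3; 3.53% of all genes) and 1 was lower (Itpr2; 6.36% of all genes). Those 3 of 31 stand beside 9.89% of all genes. Of the 31 genes, 1 had groups that did not overlap, Itpr3, with higher values after treatment (2.38% of all genes in that direction), and 0 did so with lower values (5.08%), against 7.46% of all genes in either direction. For 23 of 31 genes the 95% interval lay within a 1.5-fold change either way, as it did for 77.7% of all genes. The 8 genes with wider intervals were Scn4b, Cacna1b, Cacna1c, Cacna1h, Cacna2d4, Ryr1, Itpr1 and Hcn2. Of 14 genes with more than 1 probe, 9 had probes whose differences had opposite signs (Scn1a, Scn2a, Scn8a, Cacna1d, Cacna1g, Cacna1h, Cacna1i, Cacna2d2 and Cacnb2), and the brightest probe is given here. The plot of differences with their intervals shows all 31.

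**Figure D1:**
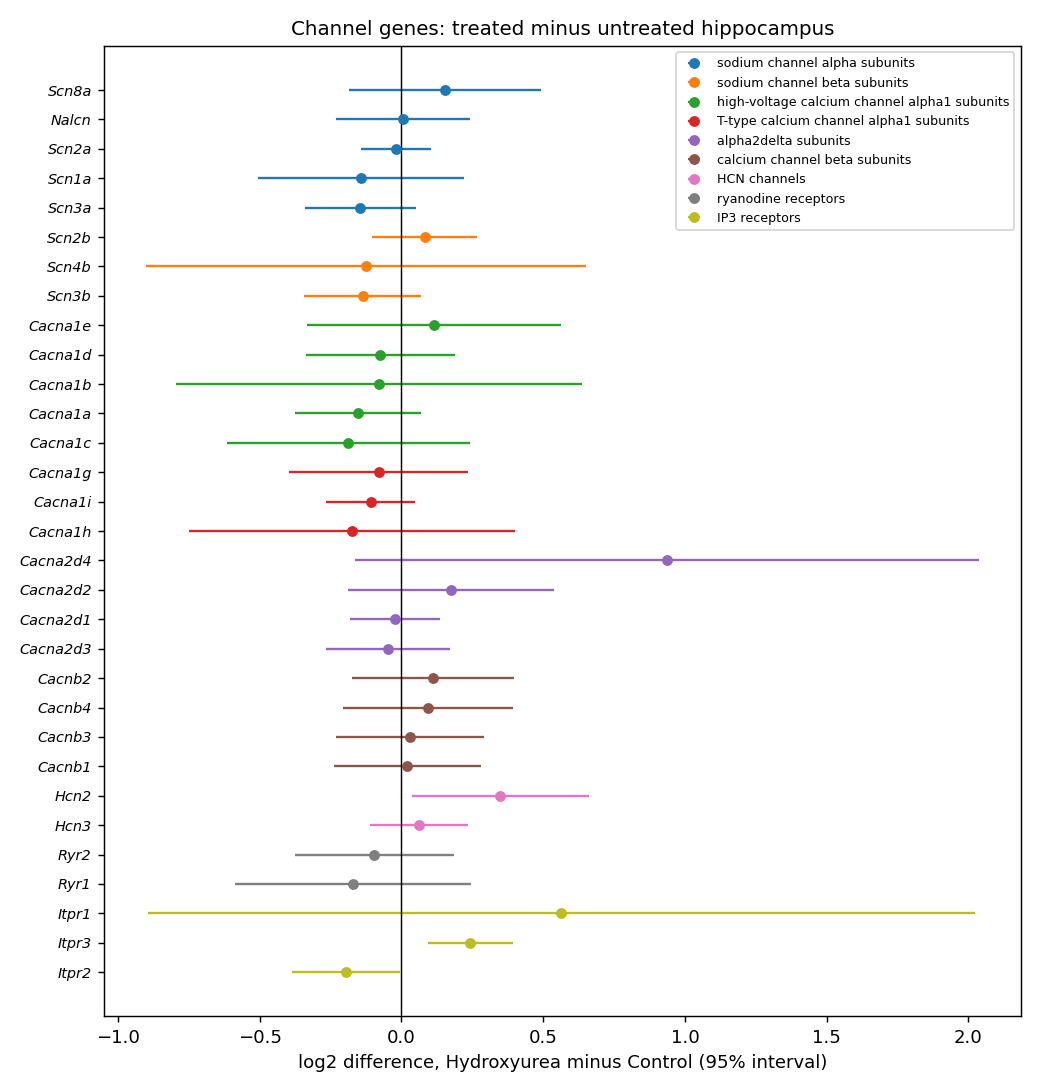
Log2 difference between the Hydroxyurea and Control means (x axis) for the 31 channel genes tested, grouped and coloured by class, with 95% intervals from limma (n = 4 mice per group). Most intervals cross 0; those of Hcn2 and Itpr3 lie above it and that of Itpr2 lies just below it, and Itpr1, Cacna2d4 and Scn4b have the widest.

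The promoters of 5 genes are shown because their values carry the account that follows: the IP3 receptor genes Itpr3 and Itpr2 and the pacemaker gene Hcn2 had the smallest unadjusted p, and Scn1a and Scn4b had their highest values in the same 2 mice. Each line gives the 250 bases before the start, 5′ to 3′ on the gene's strand, from RefSeq on GRCm38.p6, which had an entry for 25 of the 34 genes. Capitals mark CCAAT or GGGCGG on either strand, which read ATTGG and CCGCCC on the strand printed where the match is on the other. Itpr3 lies on the plus strand at chr17:27057054-27057303, Itpr2 on the minus strand at chr6:146502224-146502473, Hcn2 on the plus strand at chr10:79716384-79716633, Scn1a on the minus strand at chr2:66440838-66441087 and Scn4b on the plus strand at chr9:45138374-45138623.
Itpr3: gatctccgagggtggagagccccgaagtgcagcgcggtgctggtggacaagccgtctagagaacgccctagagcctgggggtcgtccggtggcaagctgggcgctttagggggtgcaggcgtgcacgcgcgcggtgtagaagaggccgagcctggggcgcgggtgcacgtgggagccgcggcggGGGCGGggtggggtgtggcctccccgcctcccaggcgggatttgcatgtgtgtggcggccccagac
Itpr2: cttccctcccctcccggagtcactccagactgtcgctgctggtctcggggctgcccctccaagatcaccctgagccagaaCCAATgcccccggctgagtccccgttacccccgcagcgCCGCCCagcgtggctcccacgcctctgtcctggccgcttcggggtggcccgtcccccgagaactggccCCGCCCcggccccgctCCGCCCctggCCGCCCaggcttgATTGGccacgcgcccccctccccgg
Hcn2: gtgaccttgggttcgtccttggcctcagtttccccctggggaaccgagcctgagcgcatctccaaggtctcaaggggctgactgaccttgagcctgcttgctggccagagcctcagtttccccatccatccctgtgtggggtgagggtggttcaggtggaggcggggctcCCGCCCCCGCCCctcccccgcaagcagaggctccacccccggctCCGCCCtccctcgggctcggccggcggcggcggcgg
Scn1a: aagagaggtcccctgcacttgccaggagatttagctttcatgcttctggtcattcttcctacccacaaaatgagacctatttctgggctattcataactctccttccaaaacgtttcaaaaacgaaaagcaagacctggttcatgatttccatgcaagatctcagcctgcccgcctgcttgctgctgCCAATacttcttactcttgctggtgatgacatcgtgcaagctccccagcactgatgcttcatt
Scn4b: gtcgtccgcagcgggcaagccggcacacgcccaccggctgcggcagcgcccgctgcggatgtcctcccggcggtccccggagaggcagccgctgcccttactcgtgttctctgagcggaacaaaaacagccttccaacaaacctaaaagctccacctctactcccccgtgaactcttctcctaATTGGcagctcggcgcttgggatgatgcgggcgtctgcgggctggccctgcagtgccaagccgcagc
GGGCGG, the letters of a GC box, occurred 1 time in the window of Itpr3, 4 times in that of Itpr2 and 3 times in that of Hcn2, and 32.7% of 32851 promoters held it. CCAAT occurred 2 times in Itpr2 and 1 time each in Scn1a and Scn4b, and 33.9% of all promoters held it. The windows of the release channel genes and of Hcn2 were 70.4% to 74.4% G and C, that of Scn4b 66% and that of Scn1a 46.8%, against a median of 52.4%. TATAAA (12.4% of promoters), TGACGTCA (1.55%), the full letters of a cAMP response element, and TTCAGCACC (0.301%), a core of the REST site, were not found in the 5 windows. A match is a string of letters and not a measured binding site.

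Among the pore-forming sodium channel subunits, 2 genes had higher and 3 lower values after treatment. Scn1a, the NaV1.1 channel known from fast-spiking interneurons, had values of 3.46, 2.93, 2.96 and 3.09 in Control 1 to 4 and of 2.96, 2.87, 3.31 and 2.73 in the treated mice in the same order. The highest mouse of each group, Control 1 and Hydroxyurea 3, lay above all others, and the groups overlapped (-0.14 ± 0.16, SE, n = 4 per group). Scn2a (Scn2a1 on the list), the NaV1.2 channel of excitatory neurons, was 4.53 to 4.59 in untreated and 4.47 to 4.59 in treated mice. Its difference was -0.02 ± 0.05, and its SD over 8 mice, 0.04, was smaller than that of all but 0.66% of genes tested. Scn3a, the NaV1.3 channel that is strongest before birth, had values of 2.53, 2.58, 2.37 and 2.58 in Control and of 2.48, 2.46, 2.36 and 2.19 in Hydroxyurea mice. Hydroxyurea 4 was lowest and Control 3 lay inside the treated range (-0.14 ± 0.09, limma adjusted p = 0.584). Scn3a had 3 probes, and the other two gave -0.22 ± 0.08 and -0.32 ± 0.13, with unadjusted limma p of 0.0315 and 0.0384 in the fit of 36750 probes and 0.583 and 0.585 after adjustment.

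Scn8a, the NaV1.6 channel of the axon initial segment, had values of 0.72, 0.83, 0.41 and 0.55 in Control and of 0.65, 1.16, 0.76 and 0.56 in Hydroxyurea mice. Hydroxyurea 2 was the highest and the other treated mice lay within the Control range (0.15 ± 0.15). Nalcn, the voltage-insensitive sodium leak channel, ran from 0.44 to 0.83 in Control and from 0.47 to 0.79 in Hydroxyurea mice (0.01 ± 0.10). Scn9a, the NaV1.7 channel known from peripheral sensory neurons, was not well above background on any array. Its signals ran from -8.62 to -7.29 in Control and from -8.39 to -7.26 in Hydroxyurea mice, and no fold is given.

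Of the sodium channel beta subunits, Scn3b had the smallest p and Scn4b the largest spread. Scn3b, the beta3 subunit, had values of 3.36, 3.49, 3.26 and 3.54 in Control and of 3.31, 3.44, 3.22 and 3.15 in Hydroxyurea mice. The groups overlapped, with Hydroxyurea 4 lowest (-0.14 ± 0.09, limma adjusted p = 0.623). Scn4b, the beta4 subunit tied to resurgent current, had values of 1.86, 0.66, 0.61 and 1.25 in Control and of 0.54, 0.66, 1.65 and 1.03 in Hydroxyurea mice. Control 1 and Hydroxyurea 3 were again the highest, and the spread within each group (SD 0.58 and 0.50) was larger than the difference of -0.12 ± 0.34. Scn2b, the beta2 subunit, was 4.94 to 5.08 in untreated and 4.90 to 5.21 in treated mice (0.08 ± 0.08).

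Scn1a, Scn4b and the calcium channel beta4 gene Cacnb4 had their highest 2 values in Control 1 and Hydroxyurea 3, a likeness noticed after the values were seen. So had Scn2a and Cacna2d3, which makes 5 of 31 channel genes (16.1%). Of the 16585 genes with a value on every array, 5.54% had these as their highest mice. Scn2a and Cacna2d3 did so by small margins. Scn2a had 4.588 in Control 1 and 4.590 in Hydroxyurea 3, against 4.576 in Hydroxyurea 1. Cacna2d3 had 3.47 in Hydroxyurea 3, against 3.46 in Hydroxyurea 4. The second Scn1a probe was also highest in Control 1 and Hydroxyurea 3, and neither other Scn2a probe was. Cacnb4 had values of 2.71, 2.19, 2.28 and 2.28 in Control and of 2.35, 2.40, 2.69 and 2.39 in Hydroxyurea mice. Scn1a and Scn4b parted in other mice, with Hydroxyurea 4 lowest for Scn1a and Hydroxyurea 1 lowest for Scn4b. Of the interneuron markers, 2 of 8 (Gad1 and Pvalb) were highest in Control 1 and Hydroxyurea 3. The most variable, the parvalbumin gene Pvalb, had 3.46 and 3.72 there and 2.61 to 3.02 in the others. Of the thalamic and habenular markers, 3 of 10 (Rora, Ramp3 and Slc17a6) were highest in those mice. The most variable, the transcription factor gene Zic1, was not. It had 0.79 in Control 1, its lowest mouse, and 3.04 in Hydroxyurea 3, against 1.31 to 3.54 in the others. The mean of all 10 thalamic and habenular markers, as deviation from each gene's mean, was -0.12 in Control 1 and 0.69 in Hydroxyurea 3, and ran from -0.33 to 0.24 in the other mice. As a summed level, the log2 of their summed signals, these markers ran from 3.44 to 4.05 on the log2 scale in Control and from 3.52 to 4.86 in Hydroxyurea mice. The corresponding mean of 8 interneuron markers was 0.09 and 0.16 in the 2 mice and -0.13 to 0.05 in the others, with summed levels of 7.12 to 7.29 in untreated and 7.16 to 7.38 in treated mice. The part that tissue from neighbouring regions or interneuron content played in these values was not tested. The plot of deviations by mouse sets 3 channel genes beside these markers.

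**Figure D2:**
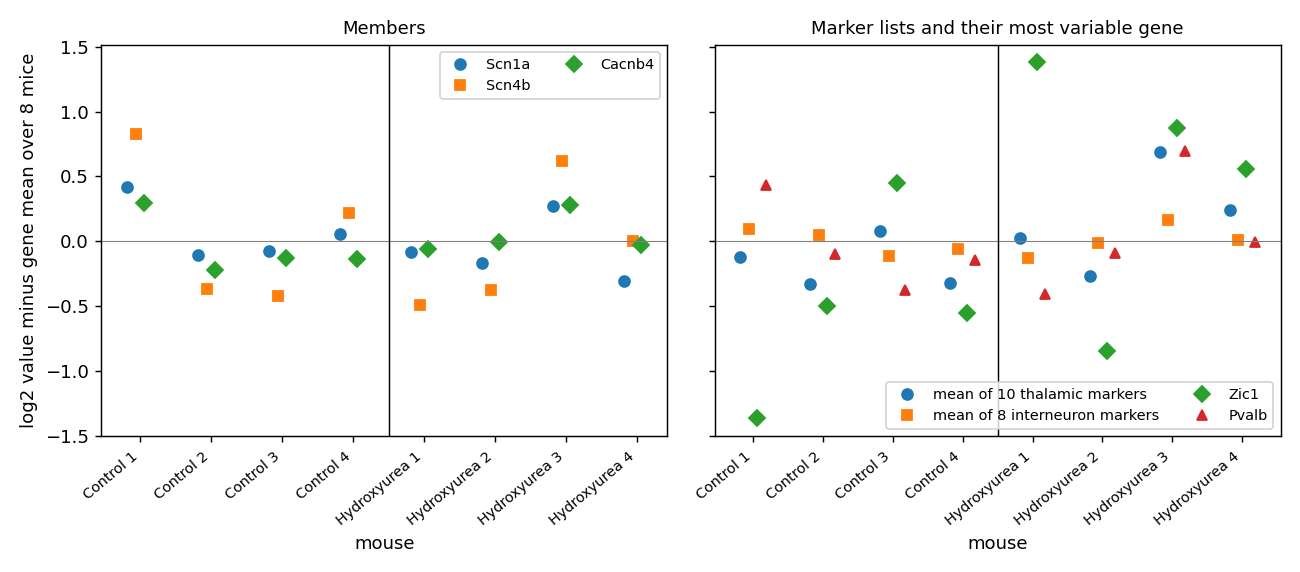
Log2 value of a gene minus its mean over the 8 mice (y axis) for each mouse (x axis), with Scn1a, Scn4b and Cacnb4 on the left and, on the right, the mean over the thalamic and the interneuron markers and the most variable gene of each list, Zic1 and Pvalb; the vertical line parts Control from Hydroxyurea mice. The 3 channel genes and Pvalb are highest in Control 1 and Hydroxyurea 3, whereas Zic1 is lowest in Control 1 and the mean of thalamic markers is -0.12 there. Among markers not drawn, the interneuron gene Gad1 and the thalamic genes Rora, Ramp3 and Slc17a6 are also highest in those mice.

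The pores of high-voltage-activated calcium channels had higher values in 1 gene and lower values in 4, with a median log2 difference of -0.08. Cacna1a, the P/Q-type pore of presynaptic terminals, had values of 2.80, 2.46, 2.47 and 2.60 in Control and of 2.59, 2.40, 2.39 and 2.33 in Hydroxyurea mice. Its treated values other than that of Hydroxyurea 1 lay below all Control values (-0.15 ± 0.10, limma adjusted p = 0.609). A second probe of Cacna1a, above background on all 8 arrays, gave -0.02 ± 0.09 with overlapping groups, and normexp gave -0.06. Cacna1c, the L-type pore that couples activity to transcription, had values of 2.87, 3.65, 3.60 and 3.60 in Control and of 3.29, 3.24, 3.42 and 3.0 in Hydroxyurea mice. Control 1 lay below all other mice, and the other 3 Control mice lay above every treated mouse (-0.19 ± 0.19). Without Control 1 the difference was -0.38 (limma adjusted p = 0.240), and with the mean of both probes it was -0.33. It was smaller in other settings, at -0.09 with normexp and -0.11 without Control 2 or without Hydroxyurea 4. A second probe of Cacna1c, which was above background on 7 arrays, gave -0.48 ± 0.17 (limma adjusted p = 0.583 in the fit of 36750 probes). This probe was dim, with a mean of -4.57, and it enters the mean of both probes. Its lowest value, -5.25 in Hydroxyurea 1, lay below -5.22, the lowest signal called well above background on that array. Cacna1b, the N-type pore, was dim, with values of -5.27, -4.94, -5.27 and -4.84 in Control and of -5.28, -4.49, -4.83 and -6.04 in Hydroxyurea mice. All 4 Control arrays and 3 of the treated ones detected it above background, and its difference of -0.08 ± 0.31 was within the spread of either group. Cacna1d, the second neuronal L-type pore, had -0.07 ± 0.11, with a range of -0.74 to -0.51 in untreated and -1.0 to -0.47 in treated mice. Cacna1e, the R-type pore, had 0.11 ± 0.19, with -4.0 to -3.46 and -4.16 to -3.33.

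The T-type calcium channels, which open near rest and support burst firing, had lower values for the brightest probe of all 3 genes, with differences from -0.18 to -0.08, and higher values for the second probe of each. The second probes gave 0.08 ± 0.18 for Cacna1g, 0.07 ± 0.14 for Cacna1h and 0.17 ± 0.14 for Cacna1i, so the probes set no common direction. Cacna1i had values of 3.12, 3.08, 3.23 and 3.19 in Control and of 3.09, 2.91, 3.13 and 3.06 in Hydroxyurea mice. The groups overlapped (-0.11 ± 0.07, limma adjusted p = 0.609), and with the mean of its probes the value was 0.032. Cacna1h had values of 1.55, 2.58, 2.27 and 2.73 in Control and of 2.10, 2.38, 2.06 and 1.89 in Hydroxyurea mice. Control 1 was its lowest mouse and the Control SD was 0.53 (-0.18 ± 0.25). Its difference was -0.42 without Control 1 (limma adjusted p = 0.289), -0.47 with array weights (limma adjusted p = 0.197), -0.027 without Control 4 and -0.05 with the mean of its probes. Cacna1g ran from 1.03 to 1.45 in Control and from 0.83 to 1.37 in Hydroxyurea mice.

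The alpha2delta subunits, which bring calcium channels to the surface and bind gabapentin in some members, had higher values in 2 genes and lower values in 2. Cacna2d4, best known from the retina, had values of -5.18, -4.67, -4.65 and -4.62 in Control and of -4.08, -5.09, -3.66 and -2.53 in Hydroxyurea mice. It was above background on 3 arrays of each group, and Hydroxyurea 4 was the highest and Hydroxyurea 2 lay among the Control mice. Its difference of 0.94 ± 0.48 had a limma p of 0.0856, or 0.551 after adjustment. Without Hydroxyurea 4 the difference was 0.50, and without Hydroxyurea 2, whose signal was not well above background, it was 1.35. It was 1.68 among 19-week mice (limma adjusted p = 0.723) and 0.51 with normexp background correction. Cacna2d2 had values of 1.74, 1.86, 2.14 and 1.86 in Control and of 2.51, 1.83, 2.04 and 1.91 in Hydroxyurea mice. Only Hydroxyurea 1 lay above the Control range (0.17 ± 0.16). Cacna2d1, the main gabapentin-binding subunit, had -0.02 ± 0.07 and Cacna2d3 had -0.05 ± 0.09.

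Choroid plexus markers, like Cacna2d4, were highest in Hydroxyurea 4 and lowest in Control 1. The mean of 8 of these markers, as deviation from each gene's mean, was -2.19, -1.04, 0.89 and -0.27 in the untreated mice, by number, and -1.20, 0.87, 0.23 and 2.71 in the treated mice. Hydroxyurea 2 had a high marker mean and a low Cacna2d4 value of -5.09. That signal lay below -5.04, the lowest called well above background on its array, so its level there was not measured. Of the Control arrays, 3 detected Cacna2d4 above background. Other mice also parted from the markers. Hydroxyurea 1 had a marker mean of -1.20 and a Cacna2d4 value of -4.08, above every Control mouse. Control 3 had a marker mean of 0.89 and a Cacna2d4 value of -4.65, close to Control 2 and Control 4. The summed level of these markers ran from 3.03 to 6.70 in Control and from 4.14 to 7.72 in Hydroxyurea mice. The part of choroid plexus tissue in the Cacna2d4 values was not tested.

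The 4 cytoplasmic beta subunits, which chaperone the alpha1 pore, had higher values after treatment by log2 differences of 0.02 to 0.11, each smaller than its SE. The direction was not common to all settings: with array weights Cacnb1, Cacnb2 and Cacnb3 had -0.0038, -0.032 and -0.037. Cacnb2 had values of -0.66, -0.10, -0.41 and -0.15 in Control and of -0.16, -0.20, -0.22 and -0.30 in Hydroxyurea mice. The treated values lay inside the Control range (0.11 ± 0.12), and a second probe gave -0.11 ± 0.16. Cacnb4, whose values are given above, had 0.09 ± 0.13, Cacnb3 had 0.03 ± 0.11 and Cacnb1 had 0.02 ± 0.11.

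Hcn2, one of the main HCN genes of forebrain neurons, had values of 4.4, 4.62, 4.23 and 4.57 in Control and of 4.59, 5.13, 4.80 and 4.71 in Hydroxyurea mice. Of the treated mice 3 lay above all Control mice, and Hydroxyurea 1 lay just under Control 2. The difference of 0.35 ± 0.14 was 1.27-fold (95% interval 1.03 to 1.58) with a limma p of 0.0325, or 0.491 after adjustment. A second probe of Hcn2 gave 0.07 ± 0.12, the mean of both probes gave 0.21, and array weights gave 0.21. With 1 mouse left out, the unadjusted p ran from 0.0191 to 0.0842, above 0.05 without Control 1, Control 3, Hydroxyurea 2 or Hydroxyurea 3, and with age as a covariate it was 0.132. Hcn3 ran from -1.29 to -1.12 in Control and from -1.26 to -1.02 in Hydroxyurea mice (0.06 ± 0.08). Hcn4, the pacemaker gene of the sinoatrial node and thalamus, was not well above background on any array, with signals of -8.47 to -7.85 in untreated and -7.56 to -7.13 in treated mice. The lowest signal called well above background was itself -6.59 to -5.77 in the untreated and -6.18 to -5.04 in the treated group, and no fold is given for Hcn4.

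The ryanodine receptors, which release calcium in response to calcium, had lower values in both genes measured, and no probe could be named for Ryr3. Ryr1 had values of -0.05, -0.14, -0.66 and -0.15 in Control and of -0.46, -0.04, -0.44 and -0.75 in Hydroxyurea mice. Control 3 and Hydroxyurea 4 were the lowest of their groups, which overlapped (-0.17 ± 0.18). Ryr2, the form most abundant in brain, ran from 2.09 to 2.47 in Control and from 1.97 to 2.41 in Hydroxyurea mice (-0.10 ± 0.12).

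IP3 receptors open on the IP3 made by phospholipase C, and their 3 genes had higher values in 2 genes and lower values in 1. Itpr3 had values of 0.60, 0.74, 0.64 and 0.54 in Control and of 0.80, 0.95, 0.88 and 0.86 in Hydroxyurea mice. All treated values lay above all Control values, and the group means were 0.63 ± 0.08 and 0.88 ± 0.06 (SD, n = 4). The difference of 0.24 ± 0.06 was 1.18-fold (95% interval 1.07 to 1.31) with a limma p of 0.0057, or 0.452 after adjustment. Itpr2, known from astrocytes, had values of 2.21, 2.05, 2.27 and 2.12 in Control and of 2.07, 2.09, 1.86 and 1.87 in Hydroxyurea mice. The 24-week treated mice lay inside the Control range and the 19-week treated mice lay below it. The difference of -0.19 ± 0.08 was 0.874-fold (95% interval 0.766 to 0.997) with a limma p of 0.0456, or 0.502 after adjustment. Among 19-week mice it was -0.30, and with normexp it was -0.12. Over the fits without 1 mouse, the unadjusted p ran from 0.0289 to 0.12 for Itpr2 and from 0.0045 to 0.0201 for Itpr3.

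Itpr1, the main IP3 receptor of neurons, had values of 2.06, 4.92, 4.89 and 5.07 in Control and of 4.69, 4.93, 4.85 and 4.72 in Hydroxyurea mice. Control 1 lay far below every other mouse, and the remaining 7 mice lay within 4.69 to 5.07. The difference of 0.56 ± 0.63 turned to -0.16 without Control 1 (limma adjusted p = 0.395) and to -0.045 with array weights. Control 1 was also low for Atp2a2, the endoplasmic reticulum calcium pump, a gene chosen after its values were seen, at 3.08 against 4.37 to 4.59 in the other 7 mice. Among the channel genes it was at least 2-fold below the median of the other Control mice for Itpr1 and Cacna1h and at least 2-fold above it for Scn4b. Whether the larger spot CV of that array played a part was not tested. The plot of values by mouse shows these genes beside Hcn2, Scn3a and Cacna2d4.

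**Figure D3:**
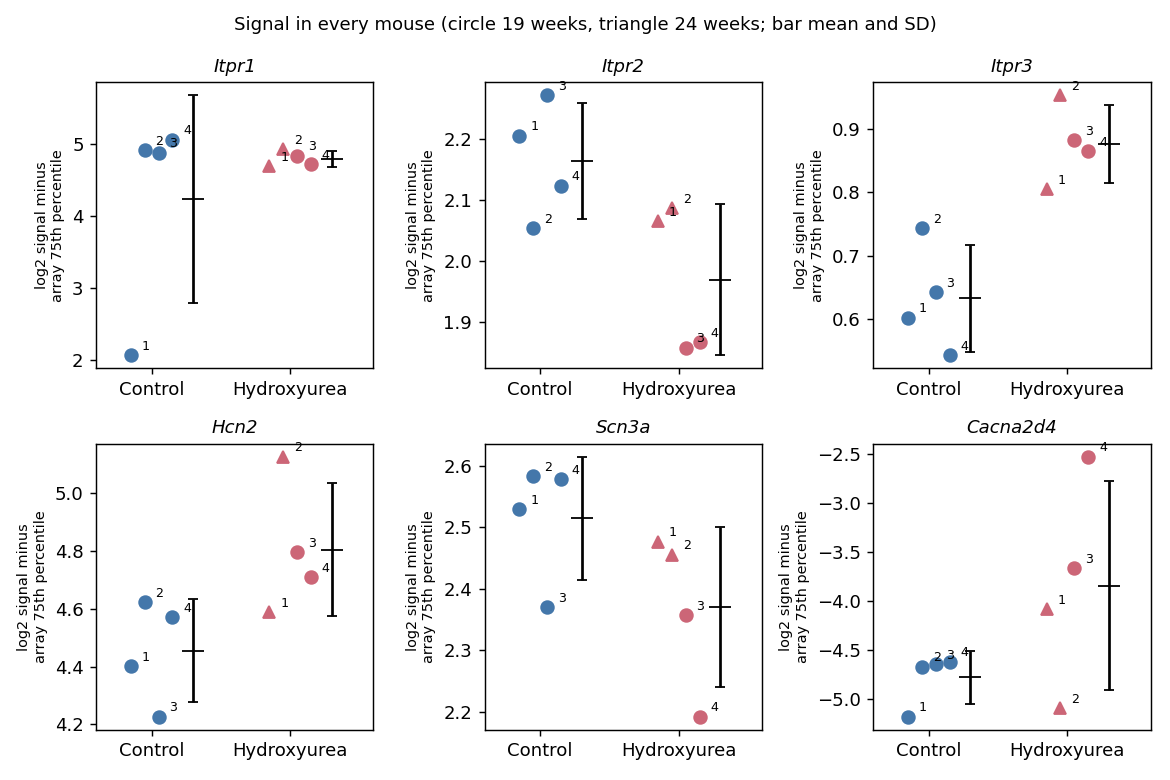
Log2 signal minus the array's 75th percentile (y axis, with a scale of its own in each panel) in each numbered mouse of the Control and Hydroxyurea groups (x axis); circles are 19-week and triangles 24-week mice, and bars give the mean and SD of 4 mice. For Itpr3 the 4 Hydroxyurea mice, 0.80 to 0.95, lie above the 4 Control mice, 0.54 to 0.74, and for Itpr1 Control 1 at 2.06 sets the Control SD.

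Over the whole set, single mice recurred as extremes. Hydroxyurea 4 had the lowest of the 8 values for 10 of 31 genes (32.3%), and it was lowest for 13.1% of all genes. The 10 genes were Scn1a, Scn3a, Scn3b, Cacna1a, Cacna1b, Cacna1d, Cacna1e, Cacna1g, Ryr1 and Ryr2. It was the highest mouse for 1, Cacna2d4. Hydroxyurea 2 was the highest mouse for 8 genes (25.8%), Scn8a, Cacna1b, Cacna1e, Cacnb3, Hcn2, Hcn3, Ryr1 and Itpr3, and for 15.1% of all genes. Its array was the dimmest, and the part of that in these values was not tested. The mean deviation of the 31 genes from their means was -0.11 in Hydroxyurea 4 and ran from -0.08 to 0.10 in the other 7 mice. Beside it, the mean deviation of dentate gyrus markers was -0.29 in Hydroxyurea 4 and -0.33 to 0.47 in the others, and that of CA3 and CA2 markers was -0.23 and -0.07 to 0.14. CA1 and interneuron markers were not low in this mouse. Their mean deviations were -0.03 (-0.22 to 0.26 in the others) and 0.01 (-0.13 to 0.16). The summed level of dentate gyrus markers ran from 4.37 to 5.18 in Control and from 4.44 to 4.83 in Hydroxyurea mice. Their part, and that of choroid plexus tissue in the same mouse, was not tested. These shares were read off after the values were seen and describe 8 mice. The map of deviations and the plot of lowest mice show both patterns.

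**Figure D4:**
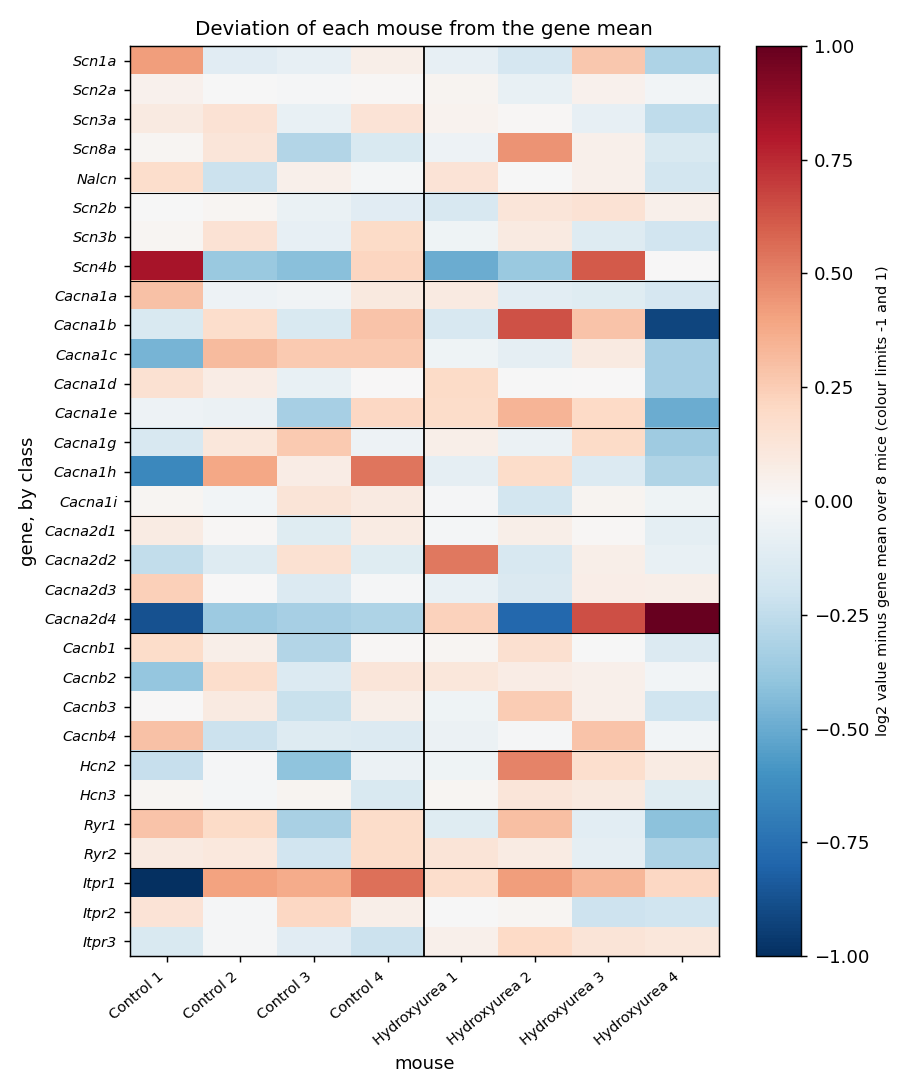
Log2 value minus the gene's mean over 8 mice (colour, limited to -1 and 1) for the 31 channel genes tested (rows, by class) and the 8 mice (columns; the vertical line parts the groups). The Hydroxyurea 4 column is blue, below the gene mean, for most genes and darkest red for Cacna2d4, and Control 1 is darkest blue for Itpr1.

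**Figure D5:**
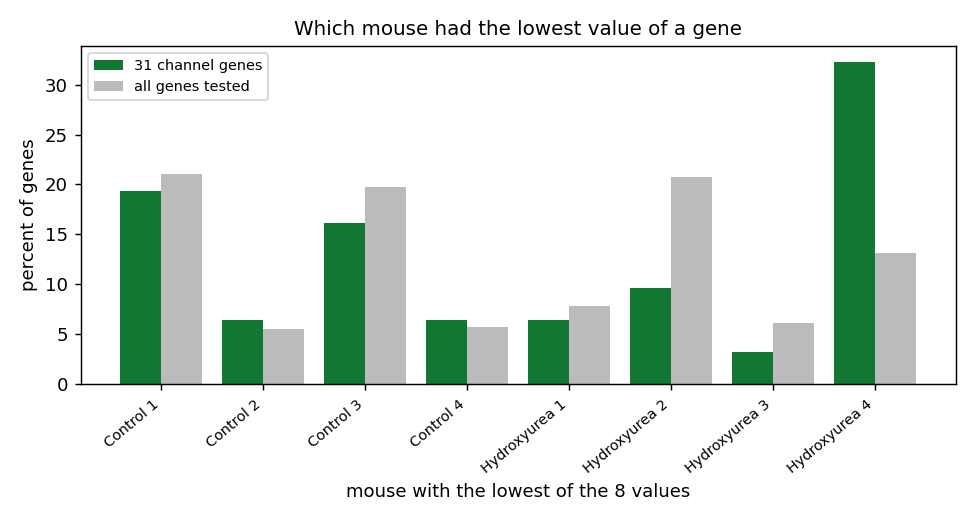
Percent of genes (y axis) for which each mouse (x axis) had the lowest of the 8 values, for the 31 channel genes and for all genes tested. Hydroxyurea 4 was lowest for 32.3% of the channel genes and 13.1% of all genes.

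Within the treated group, the pair aged 24 weeks was compared with the pair aged 19 weeks in a fit with 3 group means. Of 31 genes, 0 passed at an adjusted p under 0.05, as did 0% of all genes. Without adjustment, 0 channel genes were higher at 24 weeks at p under 0.05 (1.26% of all genes) and 1 was lower (1.44%; 2.7% of all genes in either direction). That gene was Cacna2d4, at -1.49 ± 0.45 (SE, n = 2 per age; limma adjusted p = 1.0). The 2 ages did not overlap for 8 genes higher at 24 weeks (12.3% of all genes) and for 3 lower (18.7%), 11 in all (31%). Values were higher at 24 weeks for 23 of 31 channel genes and lower for 8, against 44.5% and 55.5% of all genes, with median differences of 0.11 and -0.02. Without Hydroxyurea 4, the 19-week mouse with low values, the count was 17 of 31 against 44.9%. Ryr2 had 0.31 ± 0.14 and Itpr2 had 0.21 ± 0.10, and Scn4b, with its high value in the 19-week Hydroxyurea 3, had -0.74 ± 0.42. The 95% interval lay within a 1.5-fold change for 17 of 31 genes (62.9% of all genes), and there was no untreated pair of 24 weeks to set beside it.

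Genes that work with these channels were set beside them. Of 12 other channel subunits tested (15 listed), 10 were higher and 2 lower after treatment, against 48.7% of all genes higher. Their median difference was 0.12, and 0 passed. Scn4a, the channel of skeletal muscle, was the 1 of these 12 with an unadjusted limma p under 0.05, against 9.89% of all genes. It had values of -2.65, -2.42, -2.73 and -2.53 in Control and of -2.53, -1.52, -2.42 and -1.82 in Hydroxyurea mice (0.51 ± 0.22, limma adjusted p = 0.505). Hydroxyurea 2 and 4 lay above the Control mice, and the other treated mice lay at or near their range. Of 20 channel partners, 10 were higher and 10 lower, and 0 passed. Unc79 and Unc80, large proteins that assemble with the leak channel NALCN, were the 2 partners of 20 with an unadjusted p under 0.05, where all genes gave 9.89%.

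Unc79 had values of 0.95, 1.12, 1.20 and 1.25 in Control and of 0.97, 0.90, 0.96 and 0.86 in Hydroxyurea mice (-0.21 ± 0.08, limma adjusted p = 0.484). Unc80 had values of 3.36, 3.56, 3.54 and 3.5 in Control and of 3.38, 3.27, 3.39 and 3.06 in Hydroxyurea mice (-0.22 ± 0.09, limma adjusted p = 0.494). In both genes the treated mice lay below Control 2, 3 and 4, and Control 1 lay among them. Nalcn itself, described above, had a difference of 0.01 with a 95% interval from -0.23 to 0.24. Of 18 calcium pumps, exchangers and store entry genes, 12 were higher and 6 lower (median 0.05), and of 12 calcium sensors and buffers, 9 were higher and 3 lower (median 0.12). Of all genes, 48.7% were higher. In each of these 2 lists 0 genes passed with limma, and 0 had an unadjusted p under 0.05, against 9.89% of all genes.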

How the data were processed

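Per the labels' protocols, hippocampal RNA was labelled with Cy3. Per the file headers, Feature Extraction 12.0.3.1 read the scans, and its deposited processed signal intensity is background-subtracted and not normalized between arrays. The deposited files also hold median spot and background intensities and flags for outlier spots and spots well above background. A further table deposited by the authors gives each feature's log signal as a z score within its array, and was used for counts only.

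Log2 processed signal minus the array's 75th percentile over non-control spots was analysed, leaving out outlier spots and averaging the spots of a probe. Of 55681 probes, 28331 were named through RefSeq accessions (GRCm38.p6), giving 21368 genes. The headers' build is mm9, so no gene coordinates other than those of the RefSeq promoters are given. The brightest probe stood for a gene. The 16618 genes tested were those with a signal well above background on 4 or more arrays and a value on 6 or more of the 8. Signal over background and 4 arrays per group limit precision: 59.6% to 76.7% of probes were well above background, with 0 saturated spots.

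Tests used limma 3.58.1 (lmFit, eBayes) under R 4.3.3 and were two-sided, with p-values adjusted by Benjamini-Hochberg across the genes tested and a threshold of 0.05, in 1 fit for treatment and 1 with 3 means for age. On simulated data of 16585 genes, the treatment fit called 54.1% of genes changed 1.5-fold and 86.6% of those changed 2-fold. The age fit called 28.4% and 71.6%. The simulated noise was normal and independent between genes and mice. It held no array or tissue effect shared by genes, so the rates may differ on the real arrays.

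Values are given for the genes of each class with the smallest p (the 2 smallest in classes of 4 or more), for that with the largest SD, for those near background, and for up to 3 genes of each neighbouring list with an unadjusted p under 0.05. Members and lists were chosen with earlier results of these data known. Alternatives covered scaling, background correction, filters, the probe of a gene, age, weights, variance models, a replicate block and leaving out each mouse. The count of genes higher at 24 weeks was added after seeing the data. Normexp used the median spot signal. Some items are not reported here.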

Additional observations from a re-analysis of the deposited data

Results flagged for a closer look

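In 66 sets of 4 values (33 genes in 2 groups), 4 held a mouse that stood apart from its group by Dixon's criterion, where chance gives about 1 in 20. Control 1 was low for Itpr1 at 2.06, against 4.89 to 5.07 in the other Control mice. It was also low for Cacna1c at 2.87 (3.60 to 3.65 in the others) and for Cacna2d4 at -5.18 (-4.67 to -4.62). Hydroxyurea 3 was high for Cacnb4 at 2.69, against 2.35 to 2.40 in the other treated mice. Control 1 had the largest replicate-spot CV of the 8 arrays, and its part in these values was not tested.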

How the results depend on the processing

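No channel gene was called in any alternative run for treatment (quantile scaling, median centring, normexp, the deposited value table, both other filters, the mean of all probes, age as a covariate, 19-week mice only, array weights, another variance model, a replicate block, each mouse left out), nor for age where it could be run. The lowest adjusted p of a channel gene over these was 0.171, for Itpr3 with array weights. The count of 3 genes at an unadjusted p under 0.05 was 7 with array weights (18.6% of all genes) and 1 to 3 with a mouse left out. The lowest was without Control 3 (8.55% of all genes) and without Hydroxyurea 3 (7.17%). The count of 1 gene whose groups did not overlap was 2 with quantile scaling (7.52% of all genes), normexp (9.28%) or the value table (6.96%). It was also 2 with no filter on dim probes (6.88%) or the mean of all probes (6.53%). With no filter the added gene was Hcn4, which was not well above background on any array. The count was 8 with 19-week mice only (18.9% of all genes) and 1 to 4 with a mouse left out. The highest was without Hydroxyurea 1 (12.1% of all genes), with 3 without Control 1 (17.4%) and without Control 2 (10.1%). The median difference stayed within -0.07 to 0.03. Cacna1i turned to 0.032 with the mean of all probes. The causes were not tested. Genes higher at 24 weeks numbered 17 to 25 with a treated mouse left out.

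With the replicate number as a block, 0 channel genes passed and 2 of 31 had an unadjusted p under 0.05 (7.93% of all genes). Same-numbered mice correlated at 0.05, 0.20, -0.21 and -0.06, so the numbers were not taken to pair mice. The value table gave no log2 medians, and overlap was not computed for block, covariate, weight or variance settings. Dim genes such as Cacna2d4 and Cacna1b, and 4 mice per group, limit what could be detected.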
